A study of Mus musculus with 6 samples.

Results

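Inhibitory receptors of mast cells were represented by 9 of the 19938 genes tested: Ceacam1, Pirb, Fcgr2b, Cd300a, Cd300lf, Siglece, Cd200r1, Klrg1 and Lair1. The genes were chosen by name, with earlier results of these data known, and their probe sets were selected on the highest mean over the 6 arrays among those with 1 gene symbol. Each of the 9 had a single such probe set, so that measured mean decided nothing. The study compared marrow-derived mast cells of 2 genotypes on the C57BL/6J strain, wild type (WT) and a knockout of the microRNA miR-155 (miR-155 KO), in 3 independent cultures each and with 1 Affymetrix Mouse Gene 1.0 ST array per culture. Cells were differentiated over 5 weeks with SCF at 1 ng/ml and IL-3 at 0.5 ng/ml. All 6 cultures, WT and KO alike, then received anti-DNP IgE at 0.2 µg/ml overnight, and 1 h of stimulation with 20 ng/ml DNP-HSA as antigen. No resting cells were among the samples used here, so genotypes are compared in stimulated cells and the response to antigen itself is not measured. Whether a culture came from 1 mouse or from pooled marrow is not stated in the labels.

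Mast cells degranulate when antigen cross-links IgE on the high-affinity receptor FcεRI, which signals through kinases of the Src family and Syk. Most inhibitory receptors carry an ITIM, a short tyrosine motif in the cytoplasmic tail. Once phosphorylated, the ITIM recruits the tyrosine phosphatases SHP-1 and SHP-2 or the lipid phosphatase SHIP1, which oppose the kinases nearby. CD200R1 is an exception and works through the adaptors Dok1 and Dok2 and the Ras GTPase activating protein.

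The molecule missing from the KO cells is the microRNA below, shown because its loss is the only labelled difference between the groups. Its sequence is RefSeq's (GRCm38.p6, chr16:84714143-84714165, plus strand), with the seed, bases 2 to 8, in capitals.
mmu-miR-155-5p: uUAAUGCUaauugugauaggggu
A match of this seed to the receptors' transcripts was not analysed here.

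The unit is the log2 intensity that RMA gave the authors, in which a difference of 1 is a 2-fold change. The medians over all probe sets lay between 3.67 and 3.74 on the 6 arrays, and values near this level may be background. The probe set for Mir155 read 2.99 ± 0.15 in WT and 2.86 ± 0.08 in KO cells (SD, n = 3), below these medians in both, and so checks neither the deletion nor the labels. On the first principal component, which held 48.3% of the variance, KO replicate 1 stood apart at 32.0 while the other KO arrays were at 5.36 and 7.31. The difference of each of the 9 receptors is therefore also given without it, as is that of some of the other genes named. In the limma fit over all genes, 164 of 19938 genes passed an adjusted p of 0.05, which is 0.823%, with 101 higher (0.507%) and 63 lower (0.316%) in KO cells. Leaving out WT replicate 1, 2 or 3 gave 15, 43 or 27 such genes, and leaving out KO replicate 1, 2 or 3 gave 103, 167 or 74.

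Ceacam1 was the 1 receptor of the 9 that rose in cells without miR-155. CEACAM1 is an adhesion molecule of the immunoglobulin superfamily that binds itself on neighbouring cells, and its long isoform carries ITIMs that recruit SHP-1. Ceacam1 read 5.11, 5.81 and 5.57 on WT replicates 1, 2 and 3 and 7.89, 7.29 and 7.40 on KO replicates 1, 2 and 3. The groups were far apart: the lowest KO array lay well above the highest WT array. The means were 5.50 ± 0.36 and 7.53 ± 0.32 (SD, n = 3), a difference of 2.03 (SE 0.20, 95% interval 1.57 to 2.49) or 4.09-fold (2.98 to 5.62), with a limma adjusted p of 0.00576. By size of increase Ceacam1 ranked 20 among all genes. KO replicate 1 was the highest array, and without it the difference was 1.85 (adjusted p = 0.00655). Ceacam1 passed in each of the 6 fits without 1 array, with differences from 1.84 to 2.19 and adjusted p from 0.00655 to 0.0386. It did not pass in a fit over all 35557 probe sets, named or not, where its moderated SE was 0.22 (adjusted p = 0.0840), or with each gene's ordinary variance in place of the moderated one (adjusted p = 0.333), where 0 genes passed. In bulk RNA a change in the share of cells that carry a transcript and a change in RNA per cell cannot be told apart. The annotation pairs this 1 probe set with several Ceacam1 transcripts, so the ITIM-bearing long and the short isoforms were not separated.

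**Figure D1:**
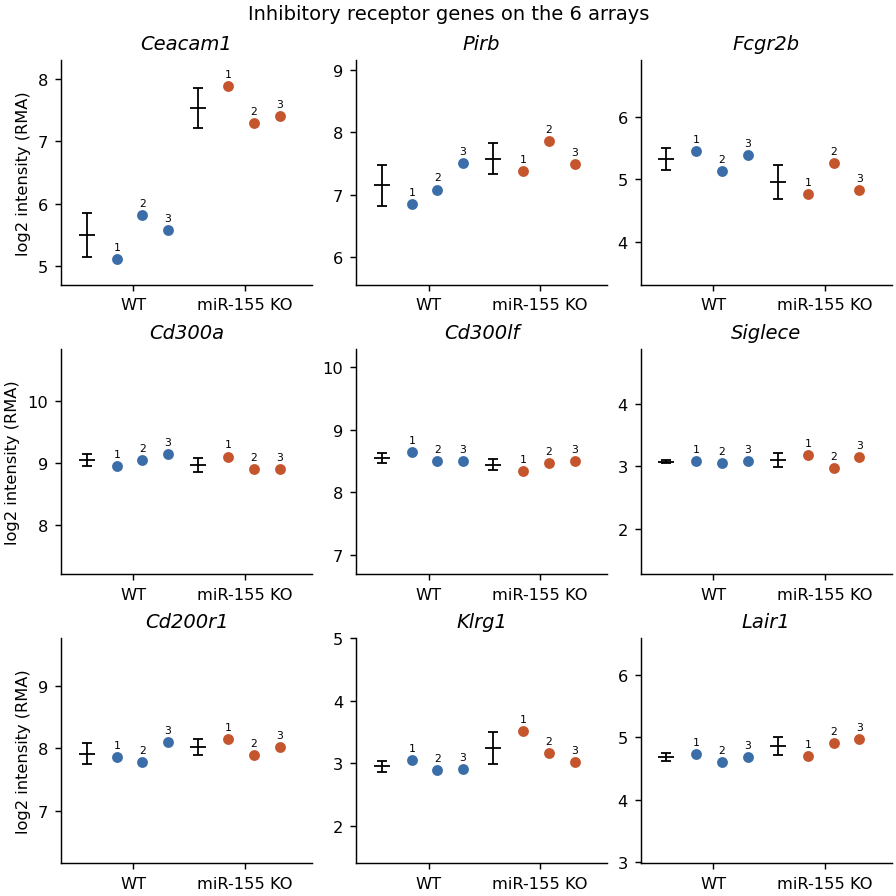
Log2 intensity of the 9 receptor genes on each array, WT in blue and miR-155 KO in orange, with replicate numbers above the points; black bars to the left of each group are the mean ± SD (n = 3). Each panel spans the same height in log2 units around its own centre, and only the Ceacam1 panel shows groups that do not overlap, with WT from 5.11 to 5.81 and KO from 7.29 to 7.89.

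By a rule on likeness over the 6 arrays, the 4 genes with the highest Pearson correlation to Ceacam1 were Wfdc5 (r = 0.997), Psmb5 (0.995), Niban1 (0.995) and Cog2 (0.993). Wfdc5 lay between 3.27 and 3.62 on the 6 arrays, below the array medians, so its values may be background. The points are 6 arrays in 2 separated genotypes, so these coefficients include the gap between genotypes, and they are the highest among all genes searched. Taken on deviations from each genotype's mean, the 4 coefficients lay between 0.907 and 0.973. The genes were picked on the same 6 arrays for a high r, so these values are no separate evidence of likeness. Niban1 had the widest gap of the 4, with a KO mean 0.76 above the WT mean, against 0.25 for Wfdc5, 0.22 for Psmb5 and 0.32 for Cog2.

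Pirb and Lair1 belong to the immunoglobulin-like receptors of the leukocyte receptor complex, both on chromosome 7. PIR-B binds MHC class I molecules and recruits SHP-1, and LAIR-1 binds collagens. Pirb read 6.86, 7.09 and 7.51 on the WT arrays and 7.39, 7.86 and 7.49 on the KO arrays. WT replicate 3 lay above KO replicates 1 and 3, so the groups overlapped. The difference was 0.43 (SE 0.18, 95% interval 0.02 to 0.83, adjusted p = 0.358). It was 0.52 without KO replicate 1, 0.28 without WT replicate 1 and 0.29 without KO replicate 2. PIR-B is nearly identical in its outer part to the activating PIR-A receptors. Another 2 probe sets carry the symbol Pirb together with PIR-A and related genes, 6 symbols in all, and there the KO mean exceeded the WT mean by 0.15 and by 0.03. Signal shared among these copies cannot be assigned to 1 gene.

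Lair1 read 4.74, 4.61 and 4.69 on the WT arrays and 4.70, 4.91 and 4.97 on the KO arrays. KO replicate 1 lay between the WT values while the other KO arrays lay above them. The difference was 0.18 (SE 0.10, 95% interval -0.04 to 0.40, adjusted p = 0.505), and 0.26 without KO replicate 1.

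Fcgr2b encodes the low-affinity IgG receptor FcγRIIB, which recruits SHIP1 and restrains mast cells when IgG and IgE bind the same antigen. It read 5.45, 5.13 and 5.39 on the WT arrays and 4.77, 5.26 and 4.84 on the KO arrays. KO replicates 1 and 3 were below all WT arrays, and KO replicate 2 was among them. The difference was -0.37 (SE 0.15, 95% interval -0.70 to -0.03, adjusted p = 0.335), and -0.27 without KO replicate 1. Fcgr3, the activating low-affinity IgG receptor, differed by 0.34 in the other direction (SE 0.19, adjusted p = 0.531), and by 0.15 without KO replicate 1. The signalling chain of the activating receptor, Fcer1g, read 11.26 ± 0.10 in WT and 11.25 ± 0.06 in KO cells. Fcgr1 and Fcgr4 had group means between 2.57 and 3.32, under the array medians.

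Cd300a and Cd300lf lie in the CD300 cluster on chromosome 11 and encode ITIM receptors for lipids, phosphatidylserine being a ligand of CD300a and ceramide of CD300LF. Both were well above the array medians, and they varied least among the receptors that were. Cd300a read 8.96, 9.05 and 9.15 on the WT arrays and 9.10, 8.90 and 8.90 on the KO arrays. Cd300lf read 8.64, 8.50 and 8.50 on the WT arrays and 8.35, 8.47 and 8.51 on the KO arrays. In both genes the groups overlapped. Cd300a differed by -0.08 (95% interval -0.30 to 0.13, adjusted p = 0.821) and Cd300lf by -0.10 (95% interval -0.30 to 0.10, adjusted p = 0.728). Without KO replicate 1 the differences were -0.15 in Cd300a and -0.06 in Cd300lf. The intervals over all arrays leave room for a decrease to 0.81-fold in each gene, and for an increase to 1.10-fold in Cd300a and 1.07-fold in Cd300lf. Their activating neighbour Cd300lb, which signals through adaptor chains, read 8.57, 8.80 and 8.74 on the WT arrays and 8.07, 8.33 and 8.32 on the KO arrays. All KO arrays lay below the WT arrays, yet the difference of -0.47 (SE 0.11) did not pass (adjusted p = 0.0906, ranging across alternatives from 0.0648 to 0.372). Cd300c2 differed by -0.11 (adjusted p = 0.893, overlapping groups), and Cd300ld, Cd300e and Cd300lg had group means between 2.87 and 3.79.

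Cd200r1 encodes the receptor for CD200, a membrane protein of many tissues. It read 7.85, 7.79 and 8.10 on the WT arrays and 8.14, 7.89 and 8.02 on the KO arrays. The groups overlapped, and the difference was 0.10 (SE 0.11, 95% interval -0.15 to 0.36, adjusted p = 0.806). It was 0.04 without KO replicate 1 or without WT replicate 2, and 0.20 without WT replicate 3. The activating relatives Cd200r2, Cd200r3 and Cd200r4 differed by 0.12, 0.09 and 0.24, with adjusted p of 0.695, 0.799 and 0.391. The ligand gene Cd200 read 2.90 ± 0.15 in WT and 2.83 ± 0.13 in KO cells, under the array medians.

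Siglece and Klrg1 stayed below the array medians on every array, so their values may be background. Siglec-E is an ITIM receptor for sialic acids, and KLRG1, known in rat mast cells as the mast cell function-associated antigen, binds cadherins. Siglece read 3.09, 3.06 and 3.08 on the WT arrays and 3.18, 2.98 and 3.15 on the KO arrays, a difference of 0.03 (SE 0.09, adjusted p = 0.958) that was -0.01 without KO replicate 1. Klrg1 read 3.05, 2.88 and 2.91 on the WT arrays and 3.52, 3.17 and 3.03 on the KO arrays. KO replicate 1 was the highest and KO replicate 3 lay within the WT range. The Klrg1 difference was 0.29 (SE 0.13, 95% interval -0.01 to 0.58, adjusted p = 0.410), and 0.15 without KO replicate 1.

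Of the 9 receptors, 1 rose, 0 fell and 8 did not pass (limma), beside 0.823% of all genes that passed in either direction. At an unadjusted p under 0.05 there were 3 (Ceacam1, Fcgr2b and Pirb), beside 12.7% of all genes. The 2 genotypes did not overlap in 1 receptor, Ceacam1, and overlapped in 8, beside 17.2% of all genes without overlap and 8.18% that lay higher in KO cells without overlap. The median difference of the 9 was 0.10 and that of all genes -0.01, and 6 of the 9 differences were positive. The intervals of Cd300a, Cd300lf and Cd200r1 all lie within 0.36 of 0, while those of Lair1, Pirb, Klrg1 and Fcgr2b reach farther from 0. That of Siglece also lies within 0.36 of 0. Its values may be background, so a narrow interval there need not mean a steady transcript.

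**Figure D2:**
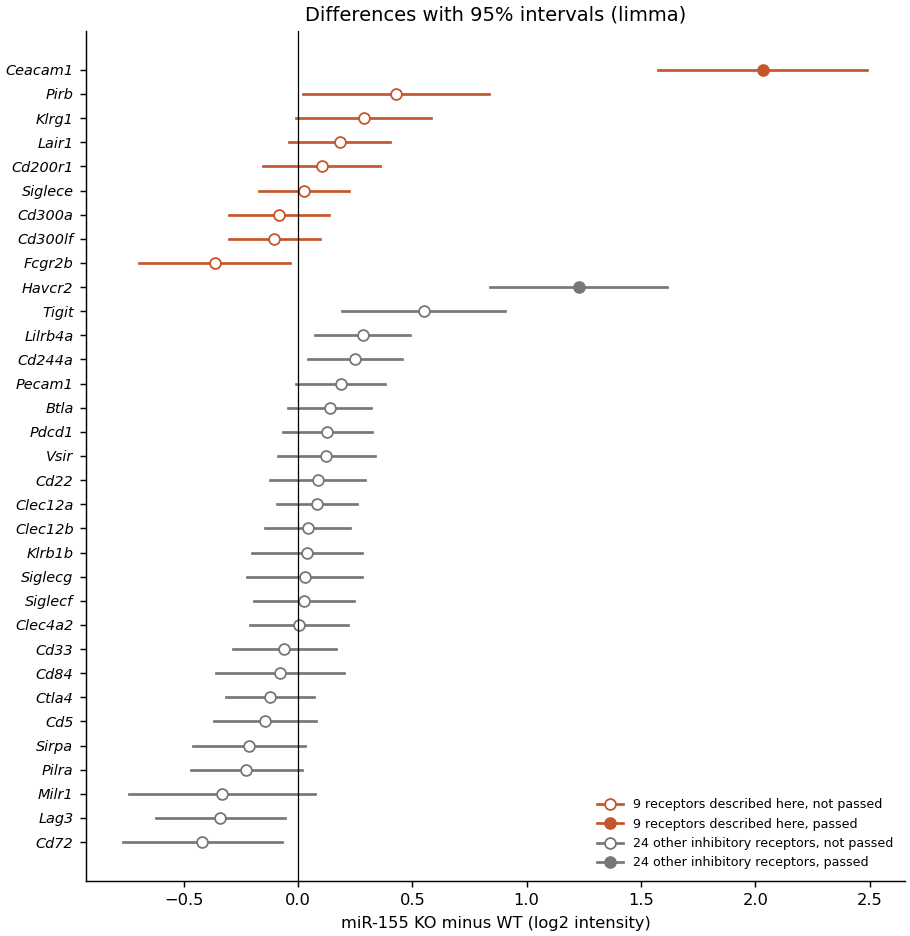
Difference of miR-155 KO minus WT in log2 intensity with its 95% interval from limma, for the 9 receptors (orange) and 24 other inhibitory receptor genes (grey). Filled points passed an adjusted p of 0.05: Ceacam1 at 2.03 and Havcr2 at 1.23.

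Among 24 other inhibitory receptor genes, 1 rose, 0 fell and 23 did not pass, beside 0.823% of all genes that passed. The gene that rose was Havcr2, which encodes TIM-3, listed here as a receptor that restrains T cells. TIM-3 has been reported to bind CEACAM1, and its action in mast cells was not measured here. Havcr2 read 8.96, 8.93 and 9.05 on the WT arrays and 10.63, 9.87 and 10.11 on the KO arrays. The WT arrays were close together, and each KO array was above them. The difference was 1.23 (SE 0.17, 95% interval 0.84 to 1.61) or 2.34-fold, with a limma adjusted p of 0.0211 that ranged from 0.00848 to 0.345 over the alternatives. The Havcr2 difference was 1.02 without KO replicate 1 (adjusted p = 0.00920). The call was lost when any WT array or KO replicate 3 was left out: the adjusted p was 0.101, 0.0889 and 0.0819 for WT replicates 1, 2 and 3 and 0.0610 for KO replicate 3, with differences between 1.20 and 1.27.

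Receptors best known from mast cells were in the same list. Lilrb4a, which encodes the ITIM receptor gp49B1, had WT values of 11.01, 10.84 and 11.07 and KO values of 11.33, 11.22 and 11.23. The KO arrays lay above the WT arrays, with a difference of 0.28 that did not pass (SE 0.09, adjusted p = 0.220). Milr1, which encodes Allergin-1, differed by -0.33 (SE 0.18, adjusted p = 0.511) and overlapped. For Tigit, an inhibitory receptor of lymphocytes, the difference was 0.55 (SE 0.16) and the adjusted p 0.163, within 0.0498 to 0.505 across alternatives. The groups did not overlap in 7 of the 24 genes that were higher and 4 that were lower in KO cells, beside 8.18% and 9.05% of all genes. The median over the 24 was 0.03, and 15 of the 24 had means below 4, close to the array medians.

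Of the proteins that carry the inhibitory signal, 18 of 20 listed genes were measured, and 0 rose and 0 fell by limma (8 of the 18 at an unadjusted p under 0.05, beside 12.7% of all genes). Csk, the kinase that switches off Src family kinases, read 8.48, 8.53 and 8.68 on the WT arrays and 7.79, 8.05 and 8.11 on the KO arrays. It was lower on every KO array, by 0.58 on average (difference -0.58, SE 0.11), and narrowly missed the threshold (adjusted p = 0.0531, ranging across alternatives from 0.0314 to 0.354). Ptpn22, a tyrosine phosphatase that partners with Csk, read 4.42, 4.24 and 4.60 against 3.72, 3.82 and 3.94. Its difference of -0.59 (SE 0.11, adjusted p = 0.0539, ranging across alternatives from 0.0452 to 0.355) also missed it.

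None of the phosphatases that bind ITIMs directly passed. Ptpn6, which encodes SHP-1, read 8.87, 8.91 and 9.08 on the WT arrays and 8.54, 8.61 and 8.70 on the KO arrays, a difference of -0.34 (SE 0.09, adjusted p = 0.146). Inpp5d, which encodes SHIP1 and is a known miR-155 target, read 10.57, 10.64 and 10.69 against 10.10, 10.48 and 10.47, a difference of -0.28 (SE 0.12, adjusted p = 0.352), or -0.16 without KO replicate 1. In both genes all KO arrays lay below all WT arrays. Ptpn11, which encodes SHP-2, differed by 0.09 (SE 0.10, adjusted p = 0.787) and overlapped. Dok2, an adaptor downstream of CD200R1, differed by 0.62 (SE 0.15, adjusted p = 0.105), its relative Dok1 by -0.22 (SE 0.13, adjusted p = 0.577). Rasa1, the Ras GTPase activating protein of that route, differed by 0.33 (SE 0.10, adjusted p = 0.210). Over the 18 genes the median difference was -0.13, with 11 negative and 7 positive. The groups did not overlap in 5 genes that were lower and 4 that were higher in KO cells, beside 9.05% and 8.18% of all genes.

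**Figure D3:**
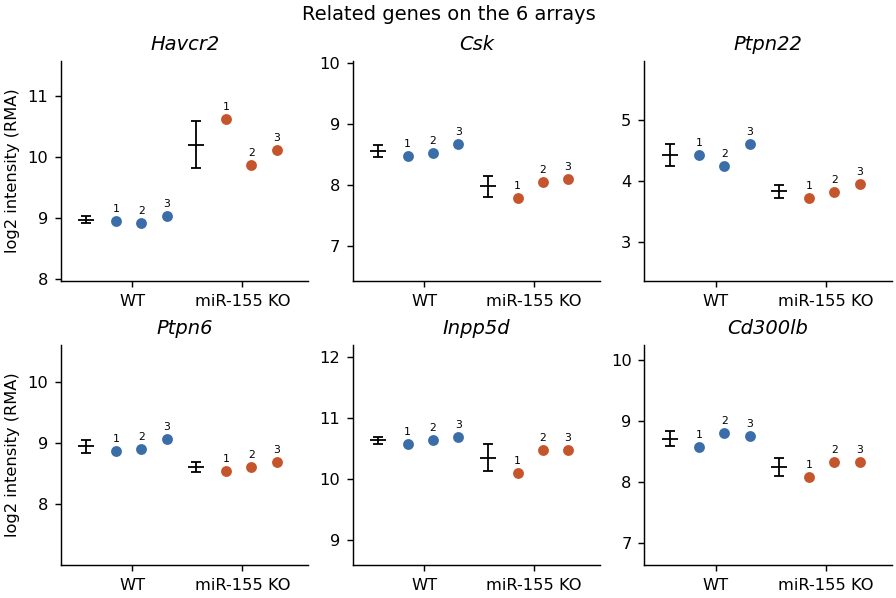
Log2 intensity of Havcr2, the signalling genes Csk, Ptpn22, Ptpn6 and Inpp5d, and the activating receptor gene Cd300lb on each array, drawn as in the panels of the 9 receptors (points are arrays, bars mean ± SD, n = 3). Havcr2 lies higher on all KO arrays (9.87 to 10.63 against 8.93 to 9.05) and the other 5 genes lie lower, but only Havcr2 passed the test. The signalling genes drawn are a selection. In their list 5 genes lay lower and 4 higher in KO cells without overlap, and the higher ones, Dok2 and Rasa1 among them, are not drawn.

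Activating relatives of the 9 receptors and their adaptors gave 22 measured genes of 28 listed. By limma 0 rose and 0 fell, and 3 of the 22 had an unadjusted p under 0.05, beside 12.7% of all genes. The lowest p after Cd300lb belonged to Trem1 and Cd200r4, at -0.24 and 0.24 (adjusted p = 0.349 and 0.391), and Trem1 was under the array medians. The adaptor gene Tyrobp read 9.17, 9.51 and 9.34 on the WT arrays and 8.34, 9.43 and 9.07 on the KO arrays, with KO replicate 1 far below the others. Its difference was -0.40, and -0.09 without that array. The median of these genes was -0.00. Of 20 genes of ligands, 16 were measured. Beside 0.823% of all genes that passed, 1 of the 16 rose and 0 fell. That gene was Havcr2, which stands in both lists as a reported partner of CEACAM1. B2m, the light chain of MHC class I, differed by 0.16 (SE 0.09, adjusted p = 0.519). The cadherin gene Cdh1 differed by -0.27 (SE 0.10, adjusted p = 0.316), with all group means under the array medians. The median over the ligands was 0.05.

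**Figure D4:**
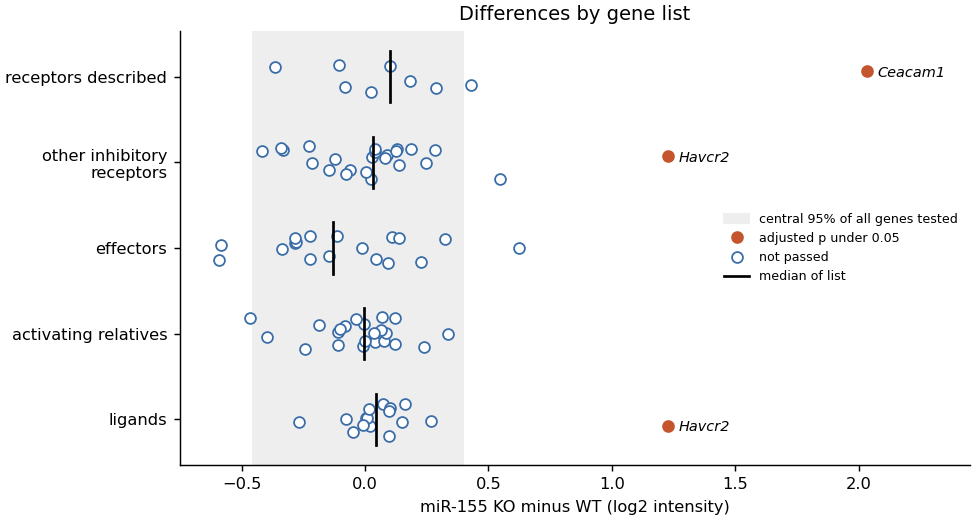
Difference of miR-155 KO minus WT in log2 intensity for each gene of 5 lists, spread vertically for legibility, with a black line at each list's median. The grey band holds the central 95% of all genes tested, from -0.45 to 0.40; Ceacam1 and Havcr2 (drawn in both lists that hold it) are the genes that passed.

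Promoter windows, 250 bases before to 50 after the transcription start, were taken from RefSeq (GRCm38.p6) for the 7 receptors that matched. They were searched on both strands for the letters GAGGAAG, a core of sites of the myeloid factor PU.1. Searches for AGATAA, bound by factors of the GATA family, for TGANTCA, bound by AP-1, and for GGGNNTTCC, bound by NF-κB, were run in the same way. The PU.1 core was in 5 of the 7 windows (Pirb, Lair1, Siglece, Cd300a and Cd300lf), where 13.6% of all 32851 promoter windows hold it. Only 1 match is printed for each window: Siglece held another at -88 and Cd300lf another at 0 from the transcription start. The matches below are shown because they are the most frequent shared letters among the motifs searched. The core is in capitals on the gene's own strand (CTTCCTC is the reverse complement).
Pirb, chr7:3720486-3720512, minus strand: tcacaccattGAGGAAGtcagagcatg
Lair1, chr7:4063215-4063241, minus strand: agagaaacctCTTCCTCtccatgtggg
Siglece, chr7:43660182-43660208, minus strand: tccgctggggCTTCCTCagggccttgc
Cd300a, chr11:114889991-114890017, plus strand: gctagcaggtCTTCCTCtccacaaggc
Cd300lf, chr11:115134020-115134046, minus strand: accctacctcCTTCCTCttttggtgct
The NF-κB letters were in 1 of the 7 windows, that of Siglece, where they overlap the PU.1 core shown, and in 5.82% of all windows. AP-1 letters were in 0 of the 7 (7.81% of all windows), as were GATA letters (11.2%). The windows of Ceacam1 and Fcgr2b held none of the 4 motifs. Ceacam1, which rose, is not among the 5. Havcr2, which rose among the other inhibitory receptor genes, lies outside the 7 windows counted here. Its own window held the PU.1 core at -8 and the AP-1 letters at -200 from the transcription start. A match of letters is a description of the sequence and not evidence of binding. Whether any of these motifs bears on the rise of either gene was not tested.

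The mast cell genes Fcer1a, Kit and Cpa3 were high on every array. Fcer1a read 12.06 ± 0.13 in WT and 12.10 ± 0.10 in KO cells, Kit 11.89 ± 0.19 and 11.82 ± 0.10, and Cpa3 12.78 ± 0.03 and 12.97 ± 0.18. Of 11 measured mast cell genes 0 rose and 0 fell by limma. At an unadjusted p under 0.05 there were 3 (Mcpt4, Hdc and Mitf), beside 12.7% of all genes. The summed intensity of the 11 genes, on the log2 scale, was 14.7 to 14.9 in WT and 14.7 to 14.97 in KO cells. Hdc, the histidine decarboxylase that makes histamine, was higher on all KO arrays by 0.84 on average (SE 0.28, adjusted p = 0.233). Mcpt4, a chymase, was also higher on all KO arrays, at 5.15 ± 0.16 against 4.71 ± 0.21 (difference 0.44, adjusted p = 0.174). Mitf, a transcription factor of mast cells, differed by -0.29 (adjusted p = 0.336). Mrgprb2, a receptor for basic peptides, was the 1 gene of the list with a mean below 4 and ranged from 3.10 on KO replicate 3 to 4.49 on WT replicate 3. RMA gives no value of 0, so markers of other cells are set against the array medians. All 14 neutrophil and all 10 lymphocyte and NK genes had means below 4, as had 8 of 10 dendritic cell and 12 of 14 macrophage and monocyte genes. Summed levels were 6.91 to 6.94 in WT and 6.82 to 6.98 in KO cells for neutrophil genes, 6.38 to 6.55 and 6.44 to 6.61 for lymphocyte and NK genes, and 6.85 to 6.97 and 6.84 to 6.90 for dendritic cell genes. By limma 0 genes of these 3 lists rose or fell (H2-Ab1 and Itgax at an unadjusted p under 0.05, beside 12.7% of all genes). H2-Ab1 was lower on every KO array, at 4.51 ± 0.17 against 5.07 ± 0.05 in WT cells. Its difference of -0.56 (SE 0.10) narrowly missed the threshold (adjusted p = 0.0523, ranging across alternatives from 0.0249 to 0.347). Itgax differed by 0.39 (adjusted p = 0.382) and overlapped.

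The macrophage and monocyte list summed to 9.10 to 9.39 in WT and 8.60 to 8.72 in KO cells. Most of this sum came from Cx3cr1, with means of 8.80 in WT and 7.85 in KO cells. The sum therefore follows that gene and does not measure a share of macrophages. The genes of the list with means of 4 or more were Cx3cr1 and Vcan. Cx3cr1, the fractalkine receptor, was the 1 gene of the list that fell (difference -0.95, SE 0.14, adjusted p = 0.0280), and it had the highest mean of the list. Vcan, which encodes the proteoglycan versican, was higher on all KO arrays but did not pass (difference 0.76, SE 0.23, adjusted p = 0.178, ranging across alternatives from 0.0437 to 0.542). The Cx3cr1 call was lost in the fits lacking any WT array, KO replicate 1 or KO replicate 3 (adjusted p from 0.0585 to 0.0911). The defining genes Csf1r, C1qa and Adgre1 were all below 4 on every array. Among the basophil genes, Mcpt8 and Prss34 varied widely, with ranges of 2.35 and 1.62 over the 6 arrays. Cd200r3, Il3ra and Itga2 did not, with ranges of 0.25, 0.23 and 0.26. Mcpt8 read 7.56, 5.23 and 7.26 on the WT arrays and 5.64, 6.18 and 7.58 on the KO arrays. Prss34 differed by -0.69 (SE 0.34, adjusted p = 0.464), with overlapping groups. The basophil list summed to 9.06 to 9.55 in WT and 9.16 to 9.54 in KO cells. Most of this sum came from Cd200r3 (means of 8.42 in WT and 8.50 in KO cells) and Il3ra (7.25 and 7.17). The basophil sum therefore does not measure a share of basophils. By limma 0 of its 5 genes rose or fell (0 at an unadjusted p under 0.05, beside 12.7% of all genes). The part of other cell types in the receptor values was not tested.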

How the data were processed

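The deposited table holds log2 intensities that the authors made with RMA, per the submitters' processing notes, for 35557 probe sets on 6 arrays. No version of RMA is named there. RMA removes background, normalizes the arrays and summarises probes. Small differences of dim genes may be compressed, which was not tested. Platform annotation gave 21789 probe sets exactly 1 gene symbol, 1621 several, and did not list 12147. The probe set with the highest mean stood for each gene, leaving 19938 genes. The test was limma's lmFit and eBayes (limma 3.58.1, R 4.3.3) with genotype as sole term. Tests are two-sided, p-values are Benjamini-Hochberg adjusted over all 19938 genes, and rose, fell or passed means an adjusted p under 0.05. Differences are miR-155 KO minus WT with moderated SE and 95% intervals. The fit was tested on simulated data. The arrays, 3 per genotype, limit the precision.

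The members and gene lists were chosen with earlier results of these data known. The rule named the 9 members, list genes that passed, up to 3 genes per list with the lowest p, the leading genes of the cell type lists, Mir155, and the 4 genes most like the member with the widest range. Other genes named were chosen after their values were seen. Genes of the lists without a probe set of 1 symbol were not analysed here. Alternatives were each array left out, a replicate block, array weights, a robust prior with trend, median centring, a second quantile normalization, dim genes left out, every probe set and averaged probe sets. An ordinary variance without a prior was added after seeing the data. Plots used matplotlib 3.10.9.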

Additional observations from a re-analysis of the deposited data

How the results depend on the processing

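The Ceacam1 difference kept its sign under every alternative run and passed in all but 2. With every probe set tested the number of receptors that rose was 0 instead of 1 (adjusted p of Ceacam1 = 0.0840, with both its SE and the number of tests larger), and with an ordinary variance it was 0 too (adjusted p = 0.333), where 0 genes of all passed. The number of receptors that fell was 0 throughout. The median difference of the 9 receptors was 0.10 and ran from 0.038 to 0.19 when 1 array was left out. Siglece, near 0 in any case, turned to -0.011 without KO replicate 1 and lay between -0.011 and 0.088 over those fits. Over all genes the number higher was 101 and ran from 13 to 127 without 1 array, and the number lower was 63 and ran from 2 to 40. With every probe set 4 were higher and 0 lower. The number lower was 100 without dim genes and 105 with trend and robust priors, and with an ordinary variance 0 were higher and 0 lower. Among the other inhibitory receptors and among the ligands the number higher, 1, was 0 with every probe set and with an ordinary variance and ran from 0 to 1 without 1 array. The former was 2 with the replicate block, where Tigit also passed. The number of effector genes that were lower was 1 with the replicate block and 2 with repeated quantile normalization, without dim genes and with trend and robust priors. These are Csk alone, and Csk with Ptpn22. For macrophage genes the number lower was 0 with every probe set and with an ordinary variance, and without 1 array the numbers lower and higher each ran from 0 to 1. For dendritic cell genes the number lower was 1 without dim genes and with array weights and ran from 0 to 1 without 1 array. The cause of these changes was not tested. The labels do not say whether same-numbered arrays are paired. Deviations from the group means of same-numbered arrays correlated at -0.014, -0.061 and 0.237 across genes. Those of differently numbered arrays correlated at -0.246 to 0.235. With 3 arrays per genotype these values cannot decide whether the numbers mark pairs. With the replicate block the adjusted p of Ceacam1 was 0.0236, 8 of the 9 receptors again did not pass, and 199 genes of all passed. Small changes of dim genes such as Siglece and Klrg1, close to background, may be missed.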

Other observations

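Among the ligand genes, Cdh2 and Cd274 had KO arrays that spread more widely than the genotype means differed. Cdh2, which encodes N-cadherin, one of the ligands of KLRG1, read 8.07, 8.23 and 7.99 on the WT arrays and 8.86, 8.03 and 7.70 on the KO arrays. Cd274, which encodes PD-L1, a ligand of the inhibitory receptor PD-1, read 8.73, 8.82 and 8.44 against 9.44, 8.48 and 8.87. In both genes KO replicate 1, the array that stood apart, was the highest of the 6, and neither passed (differences 0.10 and 0.27, adjusted p = 0.933 and 0.714). Without that array the difference was -0.23 for Cdh2 and 0.01 for Cd274.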
